A study of Mus musculus with 8 samples.

Results

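Keratins are the intermediate filament proteins of epithelial cells. The 10 keratin genes described here are *Krt5*, *Krt7*, *Krt8*, *Krt14*, *Krt15*, *Krt17*, *Krt18*, *Krt19*, *Krt20* and *Krt23*. They are among those that mark simple (single-layered) or stratified (many-layered) epithelium. The list is one of gene symbols, drawn up with earlier results of these data known and with no rule on measured values, and all 10 were found among the 24063 genes listed, each with 1 transcript. They were measured by RNA-Seq in tubuloids, which are tubule-like structures that form in Matrigel from fragments of postnatal day 7-10 mouse kidney. The 4 cultures of the GDNF group (numbers 6, 12, 17 and 22) received glial-derived neurotrophic factor, a growth factor of the developing kidney, as a 24 h pulse in medium enriched with growth factors, and the 4 control cultures (3, 7, 14 and 21) received that medium without it. RNA was taken on day 7. The kidneys of both groups carried the genotype Pkd2fl/fl Pax8rtTA TetOCre mTmG, in which the *Pax8* promoter of renal epithelium drives a doxycycline-dependent Cre that can delete *Pkd2*. No doxycycline is given in the labels of either group. The labels do not say whether the cultures came from separate animals or pooled kidneys, so the p-values below measure the spread between these cultures.

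A keratin filament is built from pairs of an acidic type I chain and a basic type II chain, and most epithelia make matched partners. Keratins 8 (type II) and 18 (type I) are the usual pair of simple epithelium, including renal tubules, and are joined by keratins 7 and 19 in ducts. Keratins 5 (type II) and 14 (type I) form the pair of the basal layer of stratified epithelium. Of the 10 genes, 3 are type II (*Krt5*, *Krt7* and *Krt8*) and 7 are type I.

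The type II genes and *Krt18* lie on chromosome 15 of the mouse build GRCm38, *Krt7* at chr15:101412403-101427806 on the plus strand, *Krt5* at chr15:101707069-101712905 on the minus strand, *Krt8* at chr15:101996711-102004342 on the minus strand and *Krt18* at chr15:102028216-102032026 on the plus strand. The other members, all type I, lie on the minus strand of chromosome 11, *Krt20* at chr11:99428385-99438153, *Krt23* at chr11:99477973-99493120, *Krt15* at chr11:100131759-100135949, *Krt19* at chr11:100140810-100145926, *Krt14* at chr11:100203162-100207510 and *Krt17* at chr11:100256215-100261029. *Krt8* and *Krt18* are thus neighbours that are transcribed away from each other, and *Krt18* is the only type I member outside chromosome 11. In windows of 75 bases, the read length, 23.5% of the *Krt8* transcript also occurs in other annotated genes, mostly the pseudogene *Krt8-ps* with 22%. For *Krt5* the share is 7.77% (with 4.71% in *Krt6a*) and for *Krt14* it is 5.91%, all in *Krt16*. The other members share none, so the counts of *Krt8*, *Krt5* and *Krt14* carry an uncertainty that theirs do not.

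The RNA of *Krt7*, *Krt8* and *Krt18* varied together over the cultures (below), and the 250 bases before each start site are therefore shown, from RefSeq on GRCm38.p6, each 5′ to 3′ on the strand of its gene at chr15:101412153-101412402 (plus), chr15:102004343-102004592 (minus) and chr15:102027966-102028215 (plus). Capitals mark matches to 4 motifs searched on both strands: the TATA box TATAAA, the GC box GGGCGG, the AP-1 motif TGANTCA and the grainyhead motif AACCNGTT.
Krt7: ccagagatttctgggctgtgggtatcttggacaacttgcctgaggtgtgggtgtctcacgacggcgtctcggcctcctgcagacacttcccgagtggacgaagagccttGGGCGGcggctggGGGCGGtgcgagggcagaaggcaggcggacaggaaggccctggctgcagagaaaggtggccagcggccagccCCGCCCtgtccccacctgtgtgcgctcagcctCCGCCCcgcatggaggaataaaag
Krt8: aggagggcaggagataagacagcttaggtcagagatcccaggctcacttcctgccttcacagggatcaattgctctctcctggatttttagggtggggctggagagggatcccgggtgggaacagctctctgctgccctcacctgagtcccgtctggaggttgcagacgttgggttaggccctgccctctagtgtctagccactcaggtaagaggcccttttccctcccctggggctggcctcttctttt
Krt18: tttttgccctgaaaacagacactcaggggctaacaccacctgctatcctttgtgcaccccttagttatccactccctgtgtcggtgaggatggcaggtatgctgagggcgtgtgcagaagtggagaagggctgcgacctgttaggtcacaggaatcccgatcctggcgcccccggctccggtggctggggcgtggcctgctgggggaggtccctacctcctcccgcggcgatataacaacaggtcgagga
The *Krt7* window holds 4 GC boxes, which do not overlap one another. The *Krt8* and *Krt18* windows hold none of the 4 motifs as spelled. Among the 32851 promoter windows of this length, 32.7% hold a GC box, 12.4% a TATA box, 6.75% an AP-1 motif and 1.79% a grainyhead motif. Of the other members, entries for *Krt5*, *Krt20* and *Krt23* were searched as well, and the only match was 1 TATA box in *Krt20*.

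The levels of the 10 genes spanned over 3 orders of magnitude. Levels are given as the authors' TPM, an abundance scaled for transcript length, and can be compared between genes. The mean over all 8 cultures was 564 TPM for *Krt18*, 419 TPM for *Krt8*, 410.5 TPM for *Krt7* and 324 TPM for *Krt19*. Next came *Krt17* with 54.3 TPM, *Krt20* with 15.2 TPM, *Krt15* with 6.71 TPM and *Krt23* with 3.85 TPM, and *Krt14* and *Krt5* came last with 1.48 and 0.413 TPM. The ranges of every pair of neighbours in this order overlapped over the cultures. Within a culture the order was firmer, as *Krt18* was above *Krt8*, *Krt19* above *Krt17* and *Krt14* above *Krt5* in 8 of 8 cultures. *Krt8* and *Krt7* did not keep an order, with *Krt8* the higher in 3 of 8 cultures.

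**Figure D1:**
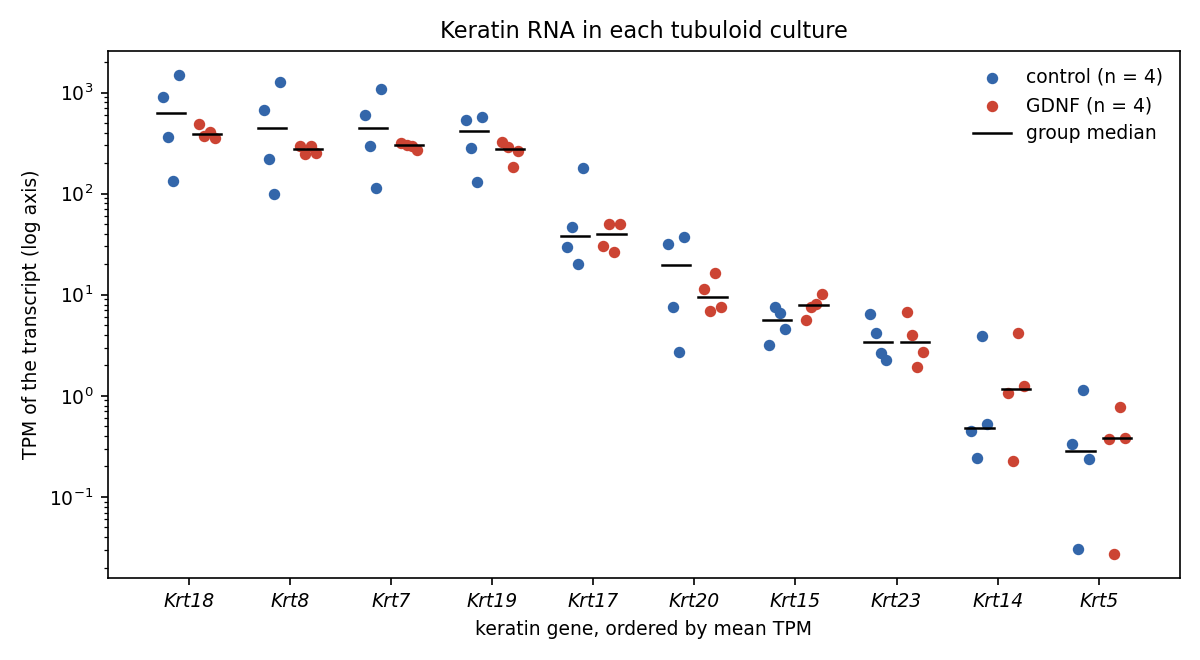
TPM of each keratin transcript (log axis) in the 4 control cultures (blue) and the 4 GDNF cultures (red), with black lines at the group medians and the genes ordered by their mean over 8 cultures. *Krt8*, *Krt7* and *Krt18* lay within 1.38-fold among the GDNF cultures and between 9.40-fold and 12.7-fold apart among the controls.

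The 4 keratins of simple epithelium, *Krt7*, *Krt8*, *Krt18* and *Krt19*, made up 95.0% ± 1.90 (SD, n = 4) of the summed TPM of the 10 members in control cultures and 95.1% ± 0.966 in GDNF cultures. They kept this share while their sum differed widely between control cultures. The 10 members together held 0.278%, 0.123%, 0.0515% and 0.464% of all TPM in control cultures 3, 7, 14 and 21, and 0.148%, 0.127%, 0.125% and 0.122% in GDNF cultures 6, 12, 17 and 22. All 4 GDNF cultures lay inside the range of the controls.

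*Krt8*, the type II chain of simple epithelium, was at 673, 222, 99.4 and 1259 TPM in control cultures 3, 7, 14 and 21 and at 295, 247, 299 and 253 TPM in GDNF cultures 6, 12, 17 and 22. In TPM, control 21 and control 3 were above every GDNF culture, and control 7 and control 14 were below every one. In CPM (counts scaled to the library size with the factors of the fit below), control 7 was at 250.3, between GDNF 12 (223.4) and GDNF 17 (270.3). On that scale control 7 was above every GDNF culture for *Krt7* (291.3 against at most 269.4) and *Krt19* (244.3 against at most 239.6). The group means were 563 ± 525 TPM (SD, n = 4) in controls and 274 ± 27.3 TPM in GDNF cultures. In the fit to the counts of all genes, which scales libraries by TMM (trimmed mean of M-values), the log2 fold change of GDNF over control was -1.45 with a standard error (SE) of 0.63, and edgeR's quasi-likelihood test gave a Benjamini-Hochberg adjusted p of 0.216.

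*Krt18*, its type I partner, was at 895, 362, 134 and 1502 TPM in control cultures 3, 7, 14 and 21 and at 488, 369, 407 and 354 TPM in GDNF cultures 6, 12, 17 and 22. The same control cultures were high and low as for *Krt8*, with control 7 now between GDNF 22 and GDNF 12 in TPM. The means were 723 ± 609 TPM and 405 ± 60.0 TPM, and the log2 fold change was -1.25 (SE 0.59, edgeR adjusted p = 0.242).

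*Krt7*, the type II keratin of ducts and of urothelium, was at 605, 295, 115 and 1079 TPM in the controls in the same order and at 317, 301, 299 and 273 TPM in the GDNF cultures. It was the tightest member within the GDNF group. Its log2 fold change was -1.22 (SE 0.54), with an adjusted p of 0.220 by edgeR's test.

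*Krt19*, a type I keratin of ducts, was at 541, 285, 131 and 572 TPM in the controls and at 326, 286, 183 and 265 TPM in the GDNF cultures. Its spread among the controls, 4.38-fold from lowest to highest, was the smallest of the 4 abundant members, and GDNF 17 was the lowest GDNF culture. The log2 fold change was -0.98 (SE 0.45, edgeR adjusted p = 0.232).

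*Krt20*, a type I keratin best known from intestinal epithelium and the surface cells of urothelium, followed the same cultures at a lower level. It was at 31.4, 7.61, 2.68 and 37.6 TPM in control cultures 3, 7, 14 and 21 and at 11.3, 6.95, 16.5 and 7.64 TPM in GDNF cultures 6, 12, 17 and 22. The log2 fold change was -1.36 (SE 0.72, edgeR adjusted p = 0.283). *Krt23*, another type I keratin, lay between 2.25 and 6.39 TPM in controls and between 1.92 and 6.71 TPM in GDNF cultures. Its highest cultures were control 3 and GDNF 6, not control 21, and its log2 fold change was -0.49 (SE 0.53, edgeR adjusted p = 0.605).

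*Krt5*, the type II keratin of basal cells, was near the limit of what these libraries can show. It had 45, 4, 146 and 25 counts in control cultures 3, 7, 14 and 21 (0.332, 0.0306, 1.14 and 0.235 TPM) and 41, 3, 83 and 32 counts in GDNF cultures 6, 12, 17 and 22 (0.377, 0.0273, 0.778 and 0.383 TPM). GDNF 12 was at the floor of 3 counts below which no level is read here, and control 7 was 1 count above it. *Krt14*, its type I partner, was at 0.448, 0.242, 3.87 and 0.521 TPM in the controls and at 1.07, 0.228, 4.18 and 1.25 TPM in the GDNF cultures. For both genes the highest cultures were control 14 and GDNF 17 and the lowest were control 7 and GDNF 12, so the difference between cultures cut across the groups. The log2 fold changes were -0.55 (SE 1.01) for *Krt5* and 0.05 (SE 0.96) for *Krt14*, with edgeR adjusted p of 0.774 and 0.982. *Trp63*, the transcription factor that defines basal cells of stratified epithelium, was between 0.0461 and 0.456 TPM in all 8 cultures.

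*Krt15*, a type I keratin of basal cells and of hair follicle stem cells, was at 3.19, 7.60, 6.66 and 4.59 TPM in the controls and at 5.66, 7.55, 8.17 and 10.2 TPM in the GDNF cultures. Its GDNF value was above the control value in 13 of 16 pairs of cultures in TPM and in 10 of 16 in CPM (counts scaled to the library size with TMM factors), and its log2 fold change was 0.14 (SE 0.26, edgeR adjusted p = 0.773).

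*Krt17*, a type I keratin of hair follicles that is induced in wounded epithelium, was at 29.5, 47.1, 19.97 and 180.1 TPM in the controls and at 30.3, 50.4, 26.6 and 50.3 TPM in the GDNF cultures. Control 21 stood above all other cultures, and the group medians in TPM, 38.3 in controls and 40.3 in GDNF cultures, were close. In CPM, the scale of the fit, the controls were at 38.27, 44.42, 18.77 and 157.4. The GDNF cultures were at 24.52, 38.14, 20.08 and 35.91 CPM. The GDNF value was above the control value in 9 of 16 pairs of cultures in TPM and in 4 of 16 in CPM. The log2 fold change was -1.13 (SE 0.56, edgeR adjusted p = 0.259) and -0.23 without control 21.

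Taking the 10 keratins as a list, the comparison of GDNF with control gave no call. All 10 passed the filter on low counts and 0 of 10 passed an adjusted p of 0.05 in edgeR, where the share of the 16557 genes tested that passed was 0.0%. At an unadjusted p of 0.05, 2 of 10 (*Krt8* and *Krt7*) were lower after GDNF, against 12.9% of all genes tested, and 0 of 10 were higher, against 9.25%. The count of lower members was 5 in DESeq2, where 2522 of 20312 genes were lower. It was 1 with the epithelial term described below, where 2221 of 16557 genes were lower. It was 0 in limma-voom, where 2081 of 16557 genes were lower. It was also 0 with scaling by library size alone, where 5.13% of all genes were lower and 19.9% higher. The log2 fold change was below 0 for 8 of 10, against 47.5% of all genes, and below -0.9 for 6 of 10 (*Krt7*, *Krt8*, *Krt17*, *Krt18*, *Krt19* and *Krt20*), against 2.75%. These 6 are not separate observations, as most of them varied together over the cultures (correlations below). The median was -1.05 for the 10 keratins and 0.033 for all genes. In TMM-scaled CPM, 0 of 10 had groups that did not overlap, against 6.26% of all genes lower and 6.99% higher after GDNF. DESeq2 gave an adjusted p to 7 of the members and passed 0 of them at 0.05, with 0.0641 for *Krt8*, 0.0764 for *Krt7*, 0.0920 for *Krt18* and 0.0991 for *Krt19* as the smallest, while it passed 9.16% of the 11639 genes with an adjusted p. In TPM the median gene was higher by 0.42 (log2 of the ratio of group means) in the GDNF cultures, against -0.67 for the median of the 10 members, so TPM ratios here are to be read against that shift.

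**Figure D2:**
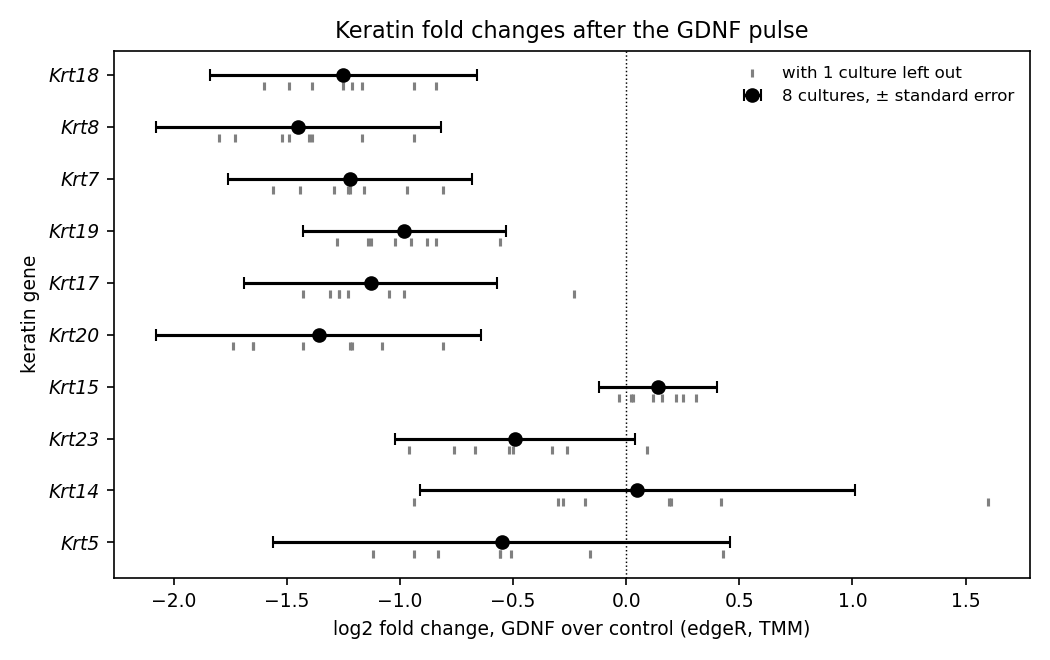
Log2 fold change of GDNF over control from the edgeR fit for each keratin (black points, bars ± 1 standard error) and with each of the 8 cultures left out in turn (grey ticks), with 0 dotted. *Krt7*, *Krt8*, *Krt18*, *Krt19* and *Krt20* stayed below -0.5 with any culture left out, *Krt17* reached -0.23, and the ticks of *Krt5*, *Krt14*, *Krt15* and *Krt23* fell on both sides of 0.

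The size of the difference rested on the controls with much keratin. For *Krt8* the log2 fold change was -0.94 without control 21 and -1.17 without control 3, and -1.80 without control 14. On the TPM scale the log2 ratio of the group means of *Krt8* was -1.04, and -0.28 without control 21. The number of members lower at an unadjusted p of 0.05 was 0 without control 3, without control 21 or without any 1 of the GDNF cultures. It was 4 without control 7 and 6 without control 14. Over all genes the number lower moved as well, to 1374 of 16802 without control 3 and 2577 of 16809 without control 21. It was 2391 of 16772 without control 7 and 2181 of 16754 without control 14. Without GDNF 6, 12, 17 or 22 it was 2195 of 16777, 1397 of 16734, 1705 of 16749 or 1321 of 16772. A fit on the log scale with quality weights for each culture (limma-voom) gave -0.70 for *Krt8*, with an adjusted p of 0.482. The cultures also differed in their RNA of *Xist* and of 4 Y-linked genes. *Xist* was above the Y-linked sum in 2 cultures of each group (control 3 and 7, GDNF 6 and 12) and below it in the others, but control 3 and GDNF 6 held both, with 12.5 and 57.4 TPM of *Xist* beside 1.502 and 6.457 TPM of Y-linked RNA, so the split is not clean. *Krt8* differed by -1.02 on the log2 CPM scale between GDNF and control cultures with more *Xist* and by -0.66 in those with more Y-linked RNA. *Krt7*, *Krt18*, *Krt19*, *Krt20*, *Krt23*, *Krt5* and *Krt17* had values below 0 in both sets as well, *Krt14* was above 0 in both (0.09 and 0.37), and *Krt15* was at -0.09 and 0.42.

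General epithelial RNA also differed between the cultures. In bulk RNA, fewer epithelial cells and less keratin RNA per cell cannot be told apart. The 10 general epithelial markers (among them *Epcam*, *Cdh1* and claudin genes) summed to 853, 675, 229 and 893 TPM in control cultures 3, 7, 14 and 21 and to 859, 742, 372 and 555 TPM in GDNF cultures 6, 12, 17 and 22. Of these markers 0 of 10 were higher and 1 of 10, *Cldn4*, was lower at an unadjusted p of 0.05 (log2 fold change -1.15, edgeR adjusted p = 0.191). The shares over all genes tested were 9.25% higher and 12.9% lower. Of these markers 6 of 10 were below 0, against 47.5% of all genes, and their median was -0.41. The 10 stromal markers summed to 394, 1011, 2841 and 964 TPM in the controls and to 431, 1687, 1969 and 1607 TPM in the GDNF cultures. Control 14, which had the lowest level of all 4 abundant keratins, had the lowest epithelial and the highest stromal sum. With the mean log2 CPM of the epithelial markers as a term in the fit, which was a choice made once the data had been seen, the values were log2 fold changes of -0.69 for *Krt8*, -0.61 for *Krt7*, -0.53 for *Krt18*, -0.59 for *Krt19*, -0.39 for *Krt20* and -0.76 for *Krt17*.

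The relation of keratin RNA to epithelial RNA was followed in ratios to single markers. The ratio of *Krt8* to *Epcam*, an adhesion molecule of epithelial cells, was 3.75, 1.31, 1.51 and 7.22 in control cultures 3, 7, 14 and 21 and 1.48, 1.55, 4.03 and 2.24 in GDNF cultures 6, 12, 17 and 22. GDNF 17 had 74.3 TPM of *Epcam*, close to the 66.0 TPM of control 14, but had 299 TPM of *Krt8* against 99.4 TPM. The ratio of *Krt19* to *Epcam* had a narrower range over the 8 cultures, from 1.64 in GDNF 6 to 3.28 in control 21. The ratio of *Krt8* to *Cdh1*, which encodes E-cadherin, was 17.5 ± 6.87 in controls and 9.16 ± 2.51 in GDNF cultures (SD, n = 4), with overlapping ranges of 9.60 to 24.4 and 6.69 to 12.6.

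**Figure D3:**
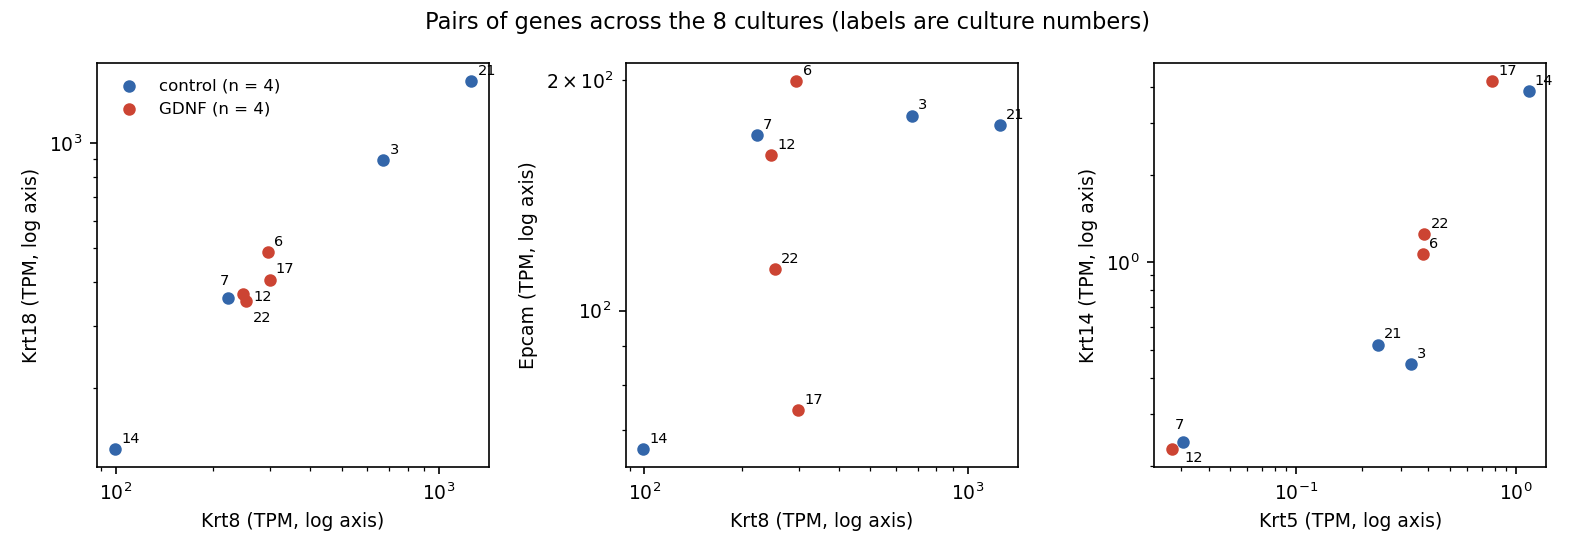
TPM of *Krt18* against *Krt8* (left), *Epcam* against *Krt8* (middle) and *Krt14* against *Krt5* (right) in each of the 8 cultures, with both axes on a log scale, controls in blue, GDNF cultures in red and culture numbers beside the points. *Krt8* and *Krt18* lay along 1 line from control 14 to control 21 with the GDNF cultures between them, whereas *Epcam* was 199 TPM in GDNF 6 and 74.3 TPM in GDNF 17 at nearly the same *Krt8*.

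The partners of simple epithelium were closely matched across cultures. Over the 8 cultures the Pearson correlation of log2 CPM was 0.993 between *Krt8* and *Krt18*, 0.992 between *Krt8* and *Krt7*, 0.995 between *Krt7* and *Krt18*, 0.966 between *Krt8* and *Krt20* and 0.910 between *Krt8* and *Krt19*. These values are descriptions of 8 points that share a library and its scaling. *Krt8* correlated less with *Cdh1* (0.843), *Krt17* (0.744), *Epcam* (0.672), *Krt23* (0.279) and *Krt5* (-0.005), and in the opposite direction with *Krt15* (-0.797), *Col1a2* (-0.538) and *Krt14* (-0.343). *Krt19* was closer to *Epcam* (0.899) than *Krt8* was. The basal pair *Krt5* and *Krt14* correlated with each other at 0.906.

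The ratio of *Krt18* to *Krt8* in TPM stayed between 1.19 and 1.65 while *Krt8* itself ranged from 99.4 to 1259 TPM. Summed over all members, type I exceeded type II keratin RNA by a ratio of 1.26 ± 0.160 (SD, n = 8 cultures). The ratio was 0.983 in control 21, the only culture where it was below 1, and 1.42 in GDNF 6, the highest. It was 1.23 ± 0.194 in controls and 1.28 ± 0.143 in GDNF cultures (n = 4 each), a difference smaller than either SD.

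Among all genes tested, those most like *Krt8* over the 8 cultures were *Ehd4* (r = 0.997), which encodes a protein of endocytic recycling, *Krt18* and *Krt7*, and 326 genes were above 0.9. Those like *Krt18* included *Krt7* and the tubulin gene *Tuba4a* (0.994), with 302 above 0.9. *Krt5* was most like *B230217C12Rik* (0.945) and the transcription factor genes *Atoh8* (0.924) and *Prrx2* (0.919), and 9 genes were above 0.9. *Krt14* was most like *B230217C12Rik* (0.982), *Tnn* (0.950), which encodes a tenascin of the matrix, and *Mamdc2* (0.949), with 13 above 0.9. *Krt5* and *Krt14* rest on few counts, down to 3 and 19 in GDNF 12.

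The spread between cultures differed between the groups for the simple keratins. The SD of log2 CPM over control and over GDNF cultures was 1.69 and 0.199 for *Krt8*, 1.45 and 0.163 for *Krt7*, 1.60 and 0.276 for *Krt18* and 1.10 and 0.390 for *Krt19*. The ratio of the control SD to the GDNF SD was 8.53, 8.88, 5.81 and 2.83, against a median of 1.39 over the 16557 genes tested and of 1.73 over the 4239 genes with a mean of at least 50 CPM. A larger ratio was held by 0.682%, 0.616%, 2.03% and 13.4% of the genes tested, and by 1.11%, 0.967%, 2.97% and 19.5% of those with at least 50 CPM. A larger control SD was held by 3.68%, 5.21%, 4.17% and 9.72% of the genes tested, and a larger GDNF SD by 64.9%, 74.0%, 48.2% and 33.5%. The median GDNF SD was 0.266 over the genes tested and 0.172 over those with at least 50 CPM. The large ratios thus went with wide control spreads rather than with unusually small GDNF SDs. *Krt20* and *Krt17* had ratios of 3.15 and 2.88, *Krt15* of 1.5, and *Krt23*, *Krt5* and *Krt14* of 1.11, 1.08 and 0.999. These moved with single cultures, to 1.5 for *Krt17* without control 21, to 3.54 and 0.612 for *Krt5* without GDNF 12 and without control 7, to 0.402 and 1.59 for *Krt14* without control 14 and without GDNF 12, to 0.612 and 1.71 for *Krt23* without control 3 and without GDNF 6, and to 2.31 for *Krt15* without GDNF 6. The comparison of spreads was made after seeing the data, rests on 4 cultures a group and has no test. Leaving out the cultures one by one, the ratio stayed between 6.52 and 9.89 for *Krt8*, 5.82 (without control 14) and 14.2 (without GDNF 22) for *Krt7*, 3.90 and 11.3 (without GDNF 6) for *Krt18* and 1.80 (without control 14) and 4.58 (without GDNF 17) for *Krt19*. Over the same cultures the epithelial marker sum spanned 229 to 893 TPM in controls and 372 to 859 TPM in GDNF cultures, and its part in the spread of the keratins was not tested.

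**Figure D4:**
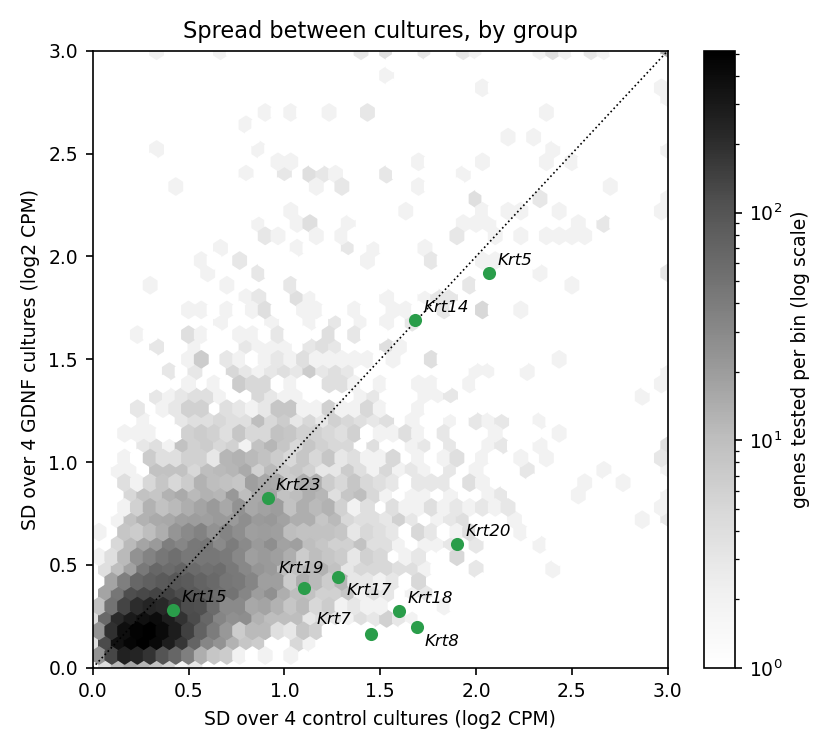
SD of log2 CPM over the 4 control cultures (horizontal) against the SD over the 4 GDNF cultures (vertical) for the 16557 genes tested (grey bins, log colour scale, values above 3 drawn at 3) and the keratins (green), with equal SD dotted. *Krt8* (1.69 and 0.199), *Krt7* (1.45 and 0.163) and *Krt18* (1.60 and 0.276) lie far to the right of most genes. On the vertical axis the median of the genes tested was 0.266. *Krt5* and *Krt14* lie near the line of equal SD.

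Beyond these 10, 42 further keratin genes were listed, of which 9 had no count in any culture and 15 passed the filter. At an unadjusted p of 0.05, 1 of these 15 was lower and 0 were higher, against 12.9% and 9.25% of all genes tested. Their median log2 fold change was -0.10. The highest of them was *Krt10*, the type I keratin of the upper layers of epidermis, at 15.9 ± 2.66 TPM in controls and 20.2 ± 3.46 TPM in GDNF cultures (SD, n = 4), with a log2 fold change of -0.05 (SE 0.20). *Krt13*, a type I keratin of mucosal stratified epithelium, was the gene with the unadjusted p under 0.05, at 3.42, 2.40, 4.14 and 3.05 TPM in controls and 2.09, 2.12, 2.69 and 3.19 TPM in GDNF cultures (log2 fold change -0.80, SE 0.30, edgeR adjusted p = 0.185). *Krt76*, *Krt80* and *Krt16* had mean levels between 1.40 and 2.64 TPM in either group and log2 fold changes of -0.71, -0.90 and -0.61, with edgeR adjusted p of 0.243, 0.393 and 0.431. No keratin outside the 10 had a mean above that of *Krt10*.

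Genes that anchor keratin filaments were also measured. Of the 11 desmosome genes tested (desmosomes tie keratin filaments of neighbouring cells), 9 had a log2 fold change above 0, against 52.5% of all genes tested, and the median was 0.10, near the 0.033 of all genes. At an unadjusted p of 0.05, 2 of 11 were higher and 1 of 11 was lower, against 9.25% and 12.9% of all genes. Those with an unadjusted p under 0.05 were *Pkp4* (plakophilin 4) with 0.46 (SE 0.14), *Evpl* (envoplakin) with 0.65 (SE 0.28) and *Perp*, a membrane protein of desmosomes, with -1.01 (SE 0.45). Of the 9 hemidesmosome genes, which anchor keratin to the basement membrane, 7 were above 0, with a median of 0.29. *Dst* (dystonin) was at 0.53 (SE 0.13) and *Plec* (plectin), both linkers between filament and junction, at 0.38 (SE 0.20), while *Cd151*, a tetraspanin, was at -0.90 (SE 0.34). None of these genes passed an adjusted p of 0.05 in edgeR, where the smallest was 0.167 in both lists.

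The 11 other intermediate filament genes tested had a median of 0.10, with 2 higher at an unadjusted p of 0.05, *Synm* (synemin) at 0.61 (SE 0.23) and *Lmnb2* (lamin B2) at 0.33 (SE 0.13), and 0 lower. The shares over all genes tested were 9.25% higher and 12.9% lower. *Vim*, which encodes the filament of mesenchymal and injured cells, was at 238 ± 67.7 TPM in controls and 298 ± 58.1 TPM in GDNF cultures and had a log2 fold change of -0.06 (SE 0.19).

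Of the genes of basal and stratified epithelium other than keratins, 11 of 13 were below 0, against 47.5% of all genes, with a median of -0.48. *Sfn* (stratifin, the 14-3-3 protein of keratinocytes) was the 1 of 13 lower at an unadjusted p of 0.05, against 12.9% of all genes, with a log2 fold change of -1.30 (SE 0.49, edgeR adjusted p = 0.183). *Sprr1a*, a cornified envelope precursor, was at -0.89 (SE 0.70) and *Grhl3*, a grainyhead transcription factor, at -1.34 (SE 0.83). The list summed to 70.3 TPM in control 14 and 424 TPM in control 3, and to between 115 and 301 TPM in GDNF cultures. Urothelial markers were sparse, with 5 of 7 tested and a sum of at most 7.24 TPM in any culture, and *Psca* was the 1 lower at an unadjusted p of 0.05 (-2.88, SE 1.2, edgeR adjusted p = 0.203).

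Markers of tubule segments gave no call. Of the distal tubule and collecting duct markers 8 of 11 tested were above 0 (median 0.41), and of the proximal tubule markers 5 of 7 (median 0.42), against 52.5% of all genes, with 0 at an unadjusted p of 0.05 in either list. At that p 9.25% of all genes tested were higher and 12.9% lower. Of the 8 injured tubule markers 4 were above 0 (median -0.01), and *Spp1* (osteopontin) was lower at an unadjusted p of 0.05 (-0.67, SE 0.29, edgeR adjusted p = 0.216). Of the 10 stromal genes 7 were below 0 (median -0.18), and *Lum* (lumican) was lower at an unadjusted p of 0.05 (-1.30, SE 0.37, edgeR adjusted p = 0.167). The 6 podocyte genes had a median of 0.07, the 4 endothelial genes tested of -0.45 and the 3 immune genes tested of 0.04. Of these, 1 gene, the endothelial *Tek*, was higher at an unadjusted p of 0.05. It was barely detected, with means of 0.0194 TPM in controls and 0.157 TPM in GDNF cultures and a lowest value of 0.0 TPM.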

How the data were processed

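Counts, FPKM and TPM of RefSeq transcripts were analysed for 8 tubuloid cultures, grouped by their treatment labels. The authors prepared SMART-Seq v4 libraries with poly-A selection, read them as 75 bp pairs, mapped them to mm10 (GRCm38) and, per the labels, used STAR, featureCounts and DESeq2. Versions, and how strand and reads with several matches were treated, are not given in the sources used here. The deposited counts are whole numbers without normalization and total 72991721 to 97490625 per culture. The deposited FPKM values were used only to obtain transcript lengths. The TPM values were scaled over all listed transcripts by the authors. At this depth counting error matters only for genes with few counts such as *Krt5*. TMM factors ranged from 0.790 in control 3 to 0.982 in control 21, and from 1.07 in GDNF 17 to 1.11 in GDNF 22. The factors of the groups did not overlap, so the scaling itself lowers GDNF values against control values. The log2 fold change of *Krt8* was -1.45 with TMM and -1.2 with library size alone. No pair of cultures held identical values, and the smallest correlation between cultures was 0.917.

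Counts of the transcripts of a symbol were added, and the quasi-likelihood test of edgeR 4.0.16 (R 4.3.3) was fitted with TMM factors to the 16557 genes that filterByExpr kept, with p-values adjusted over them by Benjamini and Hochberg and called at 0.05. TPM values are those of each gene's most counted transcript. Correlations and SDs used log2 CPM with a prior count of 1. The alternatives were DESeq2 1.42.0, limma-voom (limma 3.58.1), other normalizations and filters, 1 transcript per gene, a term for *Xist* and leaving out each culture. A term for epithelial markers and the comparison of spreads were added after seeing the data. The fits were tested on simulated counts in which 200 of 16557 genes were changed. Of 2-fold changes, edgeR recovered 20.5%, DESeq2 52.0% and limma-voom 18.0% at an adjusted p of 0.05. Of the genes called there, 12.8%, 32.0% and 5.26% were false. Of 4-fold changes, 76.5%, 84.5% and 74.5% were recovered, with 4.38%, 20.7% and 6.88% of calls false. The lack of a call in edgeR therefore does not exclude a 2-fold change. The simulation drew its changed genes from all genes tested and gave both groups the same spread. It therefore does not give the recovery for keratins with a wide spread among the controls, at 2-fold or at 4-fold. Python 3.11.15 with NumPy 2.4.6, pandas 2.3.3 and matplotlib 3.10.9 was used for the rest.

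The 10 keratins and the gene lists were chosen with earlier results of these data known. Every member is named. Of each list, the 3 genes with the smallest unadjusted p and the 2 with the highest mean TPM could be named, of the other keratins the 5 with the highest mean TPM, and the 3 genes most correlated with *Krt8*, *Krt18*, *Krt5* and *Krt14*. *Trp63*, *Cdh1* and *Col1a2* were added as defining markers outside this rule. Some genes that the rule allows are not reported here. Coordinates are from RefSeq on GRCm38, overlaps of sequence from GENCODE release M21 of the same build. A promoter entry was found for 7 members, of which that of *Krt14* begins inside the gene and was left out. The lane of each culture is not given in the sources used here.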

Additional observations from a re-analysis of the deposited data

Results flagged for a closer look

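A culture far from the 3 others of its group was found in 2 of the 24 sets of 4 values examined (the TPM of each keratin in each group, the type I to type II ratio and the members' share of all TPM). The cut-off used marks about 1 in 20 sets of normally distributed values. These sets are TPM values and ratios that need not be so distributed, and several keratins varied together. The rate at which chance marks such sets is therefore not known here. *Krt14* was at 3.87 TPM in control 14, where the other controls lay between 0.242 and 0.521 TPM. *Krt17* was at 180.1 TPM in control 21, where the other controls lay between 19.97 and 47.1 TPM. GDNF 17 was similarly high in *Krt14*, with 4.18 TPM, and no GDNF culture was above 50.4 TPM of *Krt17*.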

How the results depend on the processing

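No paired analysis was run, because the groups share no culture numbers and the labels name no pairs. Whether a control and a GDNF culture came from the same kidney preparation is not given. All fits treat the cultures as unpaired, so any such sharing is not accounted for in their p-values and standard errors. No keratin member passed an adjusted p of 0.05 under any alternative, and the smallest adjusted p was 0.0641 (*Krt8*, DESeq2). *Krt7*, *Krt8*, *Krt17*, *Krt18*, *Krt19* and *Krt20* stayed below 0 in all fits. Other normalizations, tools, filters and terms gave log2 fold changes of -1.46 to -0.69 for *Krt8*, -1.24 to -0.61 for *Krt7*, -1.26 to -0.53 for *Krt18* and -0.99 to -0.59 for *Krt19*. Scaling by library size alone moved the median of all genes from 0.033 to 0.249 and *Krt8* to -1.2. With each culture left out in turn, *Krt14* ranged from -0.94 (without GDNF 17) to 1.60, *Krt5* from -1.12 to 0.43 (without control 14), *Krt23* from -0.96 to 0.09 (without control 3) and *Krt15* from -0.03 (without control 21) to 0.31. *Krt14* was also below 0 without control 3 (-0.18), control 7 (-0.30) or control 21 (-0.28). The TPM ratio of *Krt17* went from -0.81 to 0.29 (log2) without control 21. Over all genes, 0 passed in edgeR and limma-voom and 1066 in DESeq2; at an unadjusted p of 0.05 edgeR gave 1531 higher and 2134 lower, and 3299 higher and 850 lower with library size alone, so the balance turned. Among the lists and other keratins, 14 genes had an unadjusted p under 0.05, against 9 in limma-voom, 25 with the epithelial term and 5 to 25 with a culture left out (5 without control 3, 25 without control 14, 9 without GDNF 17 and 8 without GDNF 22). The causes were not tested. A filter of 1 CPM in 4 cultures left out *Krt5*. The SD ratio of *Krt7* was 15.3 in TPM in place of 8.88. Reads of *Krt8* shared with *Krt8-ps* and the few counts of *Krt5* limit those values.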
